A study of Homo sapiens with 24 samples.

Results

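The RB pocket protein, activating and repressive E2F factors and 1 dimerization partner were followed in A549 cells. The cells underwent knockdown of MYBL2, of FOXM1 or of both, or treatment with FDI-6. The 8 genes were RB1, the activators E2F1, E2F2 and E2F3, the partner TFDP2, the repressor E2F6 and the atypical repressors E2F7 and E2F8. They were the rows of the deposited count files whose Ensembl identifiers belong to these symbols, 8 of 58721 gene identifiers, and each was found once. All 8 passed edgeR's filter on low counts in every comparison.

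RB binds E2F transcription factors and holds back the genes that drive entry into S phase until cyclin-dependent kinases phosphorylate it. E2F1, E2F2 and E2F3 bind DNA as dimers with DP proteins such as TFDP2 and activate those genes, E2F6 represses without binding RB, and E2F7 and E2F8 bind DNA without a DP partner and repress E2F targets later in S phase. MYBL2 and FOXM1 act further along the cycle, and MYBL2 binds the MuvB core, which in resting cells is held instead by a pocket protein with E2F and DP in the DREAM complex.

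Every library came from A549, an established human cell line grown from a lung adenocarcinoma. In the single knockdowns, cells received 25 nM of siRNA against MYBL2 (siMYBL2, 4 libraries), siRNA against FOXM1 (siFOXM1, 4 libraries) or scrambled siRNA (siControl, 4 libraries). In the double knockdown, siBoth cells received both targeting siRNAs (3 libraries) and had separate scrambled controls, siControl_Both (3 libraries). The methods give 25 nM for the knockdowns and do not say whether, with both siRNAs, this is the total or the dose of each. In the compound experiment, cells were treated with 20 µM FDI-6, a compound described as blocking the DNA binding of FOXM1, for 24 h (FDI6, 3 libraries) beside their own controls (control_FDI6, 3 libraries). Outside its knockdown or treatment every library had the same unmodified A549 background, and each knockdown is transient and incomplete. The vehicle of control_FDI6 is not named in the labels. The paper's list of supplementary tables sets FDI-6 against DMSO, while a figure legend calls the control cells untreated. The siMYBL2 and siFOXM1 comparisons share their 4 siControl libraries. The methods call the replicates biological, the labels say only that RNA was extracted in replicate, and p-values measure the spread between these libraries. RNA was from whole cultures, so fewer cells in a given cycle phase and less RNA per cell cannot be told apart.

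Poly(A)-selected RNA was sequenced in pairs, and 16487394 to 30140550 pairs per library were counted on genes. The share of pairs not aligned was 9.09% to 10.9% in siBoth and 7.68% to 7.92% in siControl_Both, against 1.73% to 3.03% in the other groups, and its part in the siBoth results was not tested. Levels are given as CPM, the usual scaling of a gene's count to the total counted on genes in its library, with TMM factors over the 24 libraries. MYBL2 was at 6.38 ± 1.88 CPM (SD, n = 4) in siMYBL2 and 154 ± 18.9 (n = 4) in siControl, and FOXM1 was at 12.1 ± 1.30 (n = 4) in siFOXM1 and 126 ± 12.98 (n = 4) in siControl. In siBoth, MYBL2 was at 8.54 ± 2.02 and FOXM1 at 13.2 ± 2.65 CPM (n = 3), against 174 ± 17.2 and 137 ± 9.17 (n = 3). FOXM1 was also lower in siMYBL2, at 75.9 ± 13.96 CPM (n = 4). The 5 epithelial markers (KRT7, KRT8, KRT18, KRT19, EPCAM) summed to 3797 to 10550 CPM. The 3 endothelial markers (PECAM1, CDH5, VWF) reached at most 4.58 CPM in sum. Of 3 leukocyte markers, CD3E had no read pair in any library, PTPRC stayed at or under 0.231 CPM, and CD14 accounted for the rest, so that the 3 together reached 8.22 to 15.2 CPM in siMYBL2 and 10.3 to 12.3 in siBoth, against 4.14 to 7.50 in siControl and 4.202 to 7.662 in siControl_Both. The part of CD14-bearing cells in these results was not tested, and CD3E and PTPRC were at or near 0. The 4 fibroblast markers (COL1A1, COL3A1, DCN, LUM) summed to 5.70 to 59.7 CPM, with DCN at 0 in 17 of 24 libraries. CDKN2A, an inhibitor of the kinases that phosphorylate RB and known to be deleted in A549, had 0 to 18 read pairs per library. These were 2 to 18 in siMYBL2, 2 to 11 in siFOXM1, 0 to 6 in siControl and 0 to 1 in siBoth. The other groups had 0, and the source of these pairs was not tested.

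The sequences just upstream of the transcription start show where these genes carry words that E2F proteins can recognise. RefSeq promoter windows (build GRCh38.p14) were found for 7 of the 8 genes, and the 250 bases before each start were searched on both strands. The E2F words searched were TTTCCCGC, TTTCGCGC, TTTGCCGC and TTTGGCGC, and at least 1 of them is in 2.79% of all 35116 windows of the same length. E2F1 held 2 such words, E2F2 held 1 and the upstream start of E2F3 held 1, while none was found in the windows of E2F6, E2F7 and TFDP2. The 70 bases before the start are given 5′ to 3′ on the gene's own strand, with the matches in capitals (a match on the other strand reads as the reverse complement of a word).
E2F1 (chr20:33686386-33686455, minus strand): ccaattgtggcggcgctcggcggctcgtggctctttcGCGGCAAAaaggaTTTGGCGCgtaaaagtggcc
E2F2 (chr1:23531234-23531303, minus strand): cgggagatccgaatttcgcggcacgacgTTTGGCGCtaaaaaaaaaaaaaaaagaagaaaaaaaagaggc
E2F3 (chr6:20401809-20401878, plus strand): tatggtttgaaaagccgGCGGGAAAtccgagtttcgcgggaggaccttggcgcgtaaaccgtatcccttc
The words begin 33 and 20 bases before the start of E2F1, 42 before that of E2F2 and 53 before that of E2F3.

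E2F7 had no E2F word but 4 copies of the CCAAT box, which the factor NF-Y binds in many cell-cycle promoters, all on the reverse strand. CCAAT was found on either strand in 32.0% of all windows, and also in those of E2F1, E2F3 and TFDP2, but not in those of E2F2 and E2F6. The stretch with the 2 boxes nearest to the start, which begin 86 and 54 bases before it, is given with the boxes in capitals.
E2F7 (chr12:77065600-77065669, minus strand): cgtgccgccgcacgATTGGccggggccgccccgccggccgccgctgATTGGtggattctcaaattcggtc
The cell cycle homology region (CHR), searched as TTTGAA and TTCGAA, is in 14.3% of windows. It was found in the upstream window of E2F3 and in 2 of the 3 windows of TFDP2, and not in those of E2F1, E2F2, E2F6 or E2F7. The forkhead word TAAACA, in 11% of windows, was found in 2 windows of TFDP2 and in none of the other windows of the 8 genes. The MYB words searched, AACGG after C or T and AACTG after C or T, which are in 21.1% of windows, were found in E2F1, in E2F6 and in 2 windows of TFDP2. The window listed for RB1 lies inside the gene (chr13:48476200-48476499, with the gene at chr13:48303744-48599436), so it was not read as its main start. These are matches of letters, and no binding was measured here. E2F8 is at chr11:19224063-19241620 on the minus strand.

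Per kilobase of exon, E2F1 had the highest mean of the 8 in every group, although it overlapped the next gene in siMYBL2 and siControl_Both. In siControl its level was 15.6 ± 2.01 CPM per kb (SD, n = 4), followed by RB1 at 10.4 ± 0.184, E2F6 at 9.24 ± 0.716 and E2F3 at 8.52 ± 0.629. RB1 overlapped E2F6, and E2F6 overlapped E2F3. The other 4 were E2F7 at 4.40 ± 0.703, TFDP2 at 3.47 ± 0.374, E2F8 at 2.92 ± 0.326 and E2F2 at 2.87 ± 0.0573 CPM per kb. Each of these overlapped the next, so the order of neighbours in siControl is not resolved. Every E2F7 library was nevertheless above every E2F8 and E2F2 library, and every TFDP2 library was above every E2F2 library. In siMYBL2 and in siBoth, E2F8 was the lowest of the 8, at 1.17 ± 0.219 (n = 4) and 1.11 ± 0.183 CPM per kb (n = 3), and in siMYBL2 its libraries did not overlap those of E2F2.

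The controls of the compound experiment differed from the scrambled controls in these genes, with no test, since the experiments were separate and transfection, time and batch cannot be told apart. E2F1 was at 80.8 ± 4.39 CPM (n = 3) in control_FDI6 and at 41.9 ± 5.40 (n = 4) in siControl, and E2F2 was at 31.5 ± 2.19 and 15.7 ± 0.313. RB1 went the other way, at 43.5 ± 1.26 in control_FDI6 and 66.7 ± 1.18 in siControl. Each treatment is therefore compared with its own controls.

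**Figure D1:**
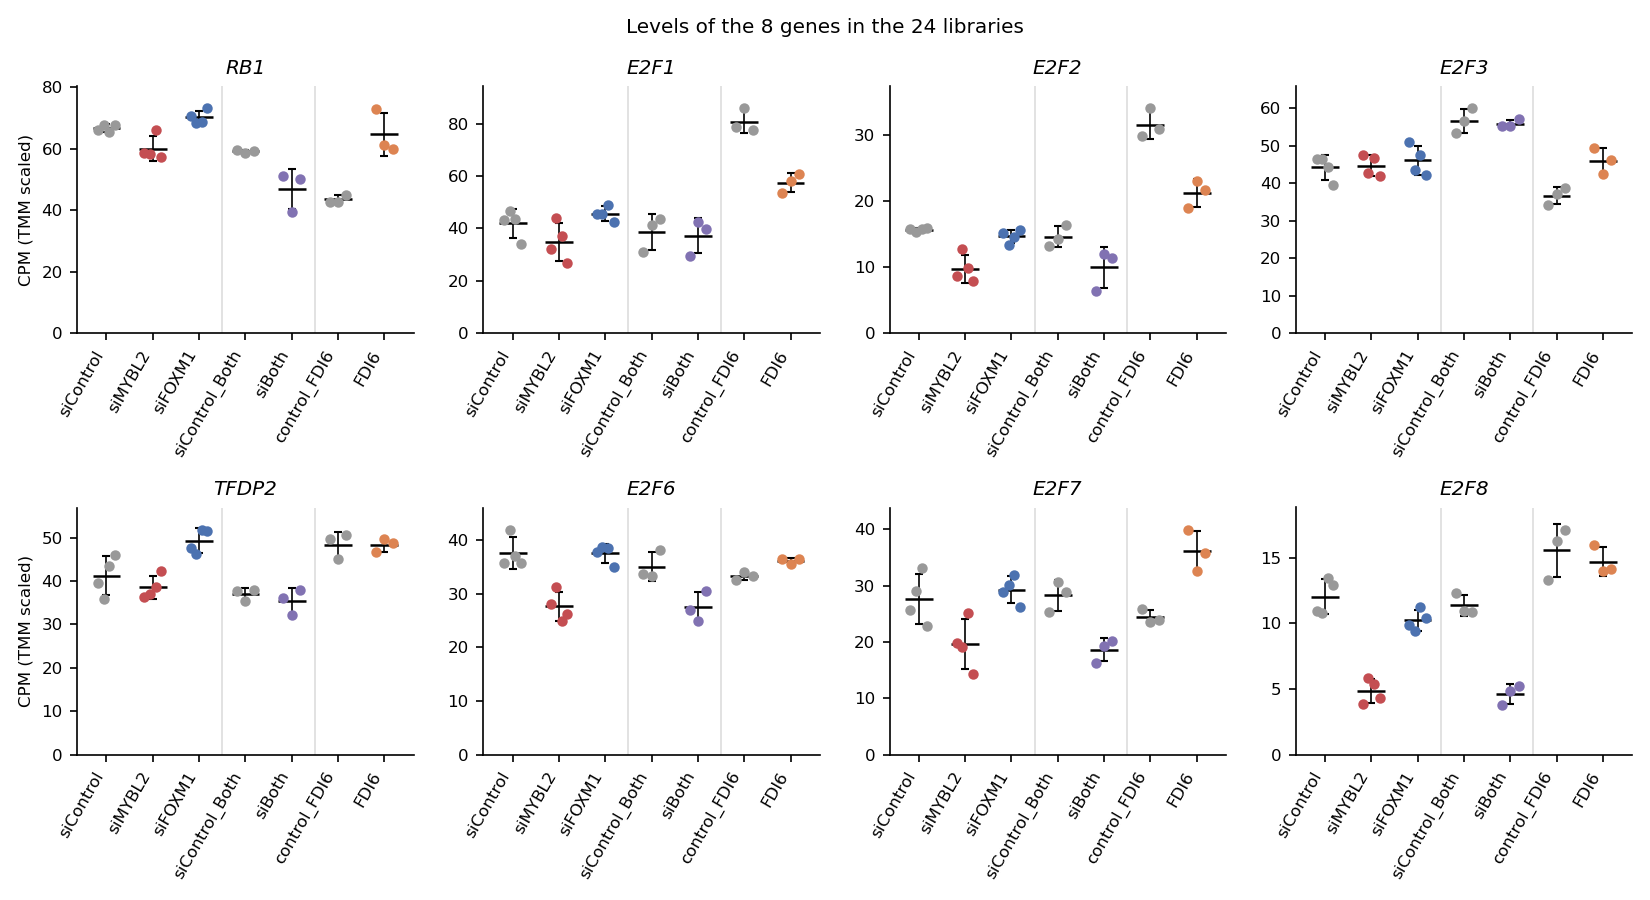
Level of each gene (vertical axis, CPM after TMM scaling, from 0) in the 7 groups. Points are single libraries in replicate order from left to right, horizontal lines are group means and error bars are SDs. E2F8 stands at 3.75 to 5.82 CPM in the siMYBL2 and siBoth libraries and at 9.42 or above in all others, and E2F1 and E2F2 are higher in control_FDI6 than in the other control groups.

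To find which of these genes responded to loss of MYBL2, the 4 siMYBL2 libraries were compared with the 4 siControl libraries. E2F8 and E2F2 were downregulated, E2F6 fell by less than 1.5-fold, and none of the 8 rose. A gene was taken to have changed at an adjusted p under 0.05 in edgeR's quasi-likelihood test, and it was called downregulated or upregulated where the fold change was also over 1.5. The 2 downregulated genes stand beside 3.52% of the 16065 genes tested that were downregulated and 4.38% that were upregulated. At the adjusted p alone, 3 of the 8 were lower and 0 higher, against 9.53% and 8.53% of all genes tested. The median log2 change was -0.35 over the 8 genes and 0.01 over all genes.

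E2F8, an atypical repressor, was at 3.89, 5.82, 5.36 and 4.28 CPM in siMYBL2 replicates 1 to 4 and at 10.98, 10.83, 13.48 and 12.92 CPM in siControl. Every knockdown library was below every control library, and the mean was 40.2% of control. The log2 change was -1.31 ± 0.154 (SE, adjusted p = 0.000831), from 97 to 172 read pairs per knockdown library. E2F2, an activator, was at 8.59, 12.7, 9.84 and 7.92 CPM in siMYBL2 and at 15.74, 15.23, 15.74 and 15.96 CPM in siControl. The groups did not overlap, and replicate 2 of the knockdown lay closest to the controls. The log2 change was -0.68 ± 0.144 (adjusted p = 0.0127). E2F6, a repressor that does not need RB, was at 28.13, 31.15, 24.97 and 26.19 CPM in siMYBL2 and at 35.7, 41.9, 37.1 and 35.7 CPM in siControl. These groups did not overlap either, and E2F6 fell by 0.44 ± 0.0897 on the log2 scale (adjusted p = 0.0104).

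E2F7, the other atypical repressor, was at 19.9, 19.1, 25.1 and 14.3 CPM in siMYBL2 and at 25.68, 29.01, 33.16 and 22.89 CPM in siControl. The groups overlapped in replicate 3 of the knockdown and replicate 4 of the control, but E2F7 was lower in 4 of 4 same-numbered pairs, by 0.37 to 0.68 on the log2 scale. Its log2 change was -0.50 ± 0.176 with an adjusted p of 0.0833, and -0.51 with an adjusted p of 4.66e-05 once the replicate number was a block in the fit. It passed the adjusted p without the block in DESeq2 (-0.51, adjusted p = 0.0341). Without siMYBL2 replicate 3 or without siControl replicate 4 the unblocked edgeR test called it downregulated (lowest adjusted p = 0.0374).

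E2F1 showed the same dependence on pairing, with 32.1, 43.9, 37.0 and 26.7 CPM in siMYBL2 against 43.25, 46.81, 43.46 and 34.21 CPM in siControl. The groups overlapped widely, yet each knockdown library was below its own-numbered control. The log2 change of E2F1 was -0.26 ± 0.155 (adjusted p = 0.281), and -0.27 with an adjusted p of 0.00241 under the block. RB1 was at 58.43, 58.23, 66.03 and 57.29 CPM in siMYBL2 and at 65.95, 67.68, 65.44 and 67.74 CPM in siControl, lower in 3 of 4 pairs. Its log2 change was -0.15 ± 0.0635 (adjusted p = 0.137), and under the block the adjusted p was 0.0281. With the block 6 of the 8 genes were lower and 0 higher at the adjusted p alone, where 23.1% of all genes tested were lower and 23.6% higher. The 2 genes that passed in neither fit were E2F3, at a log2 change of 0.02 ± 0.0784 (95% interval -0.16 to 0.19), and TFDP2, at -0.09 ± 0.0896 (-0.30 to 0.11).

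The genes that E2F proteins regulate and the proteins around RB were read in the same comparison, from lists put together with earlier results of these data known. Of 26 E2F target genes of G1/S, 8 were downregulated and 0 upregulated, against 3.52% and 4.38% of all genes tested. The median log2 change of the list was -0.42. UHRF1, a factor that maintains DNA methylation, had a log2 change of -1.17 ± 0.238 (adjusted p = 0.0107), ORC1 of the origin recognition complex -0.87 ± 0.175 (adjusted p = 0.00998), TK1, a thymidine kinase, -0.76 ± 0.131 (adjusted p = 0.00519) and MCM7, a helicase subunit, -0.66 ± 0.128 (adjusted p = 0.00847). The count was 3 to 9 when single libraries were left out, with 4 without siMYBL2 replicate 1, 3 without siMYBL2 replicate 4, 5 without siControl replicate 2 and 4 without siControl replicate 3. With the adjusted p as the only threshold 10 targets were lower, against 9.53% of all genes, and 23 under the block, against 23.1%. The unblocked count was 5 without siMYBL2 replicate 1 and 6 without siControl replicate 2 or 3. Among 15 genes upstream of RB (12 tested), CCND3, a D-type cyclin, was the only one called, at -1.23 ± 0.149 (adjusted p = 0.000968). Under the block CCNE2, an E-type cyclin, and CDKN1C, a kinase inhibitor, were upregulated as well, at 0.67 (adjusted p = 0.0008) and 0.61 (adjusted p = 0.0375). The knockdown and control libraries overlapped for both genes. CDKN1C had only 26 to 47 read pairs per library in siMYBL2 and 10 to 31 in siControl.

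None of the other pocket, E2F and DP genes was called after siMYBL2. E2F4, the main repressor E2F of resting cells, fell by 0.44 ± 0.128 on the log2 scale (adjusted p = 0.0421), from 76.2 ± 7.24 to 55.97 ± 9.28 CPM (n = 4 each). It lost the test without siMYBL2 replicate 1 or 3 or siControl replicate 1, 2 or 3 (adjusted p up to 0.107), and under the block 4 of the 5 tested were lower. The pocket proteins RBL1 and RBL2 had log2 changes of -0.24 ± 0.126 and -0.25 ± 0.125, E2F5 0.15 ± 0.113 and TFDP1 -0.13 ± 0.107, with adjusted p from 0.194 to 0.437. TFDP3 had no read pair in any of the 24 libraries.

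**Figure D2:**
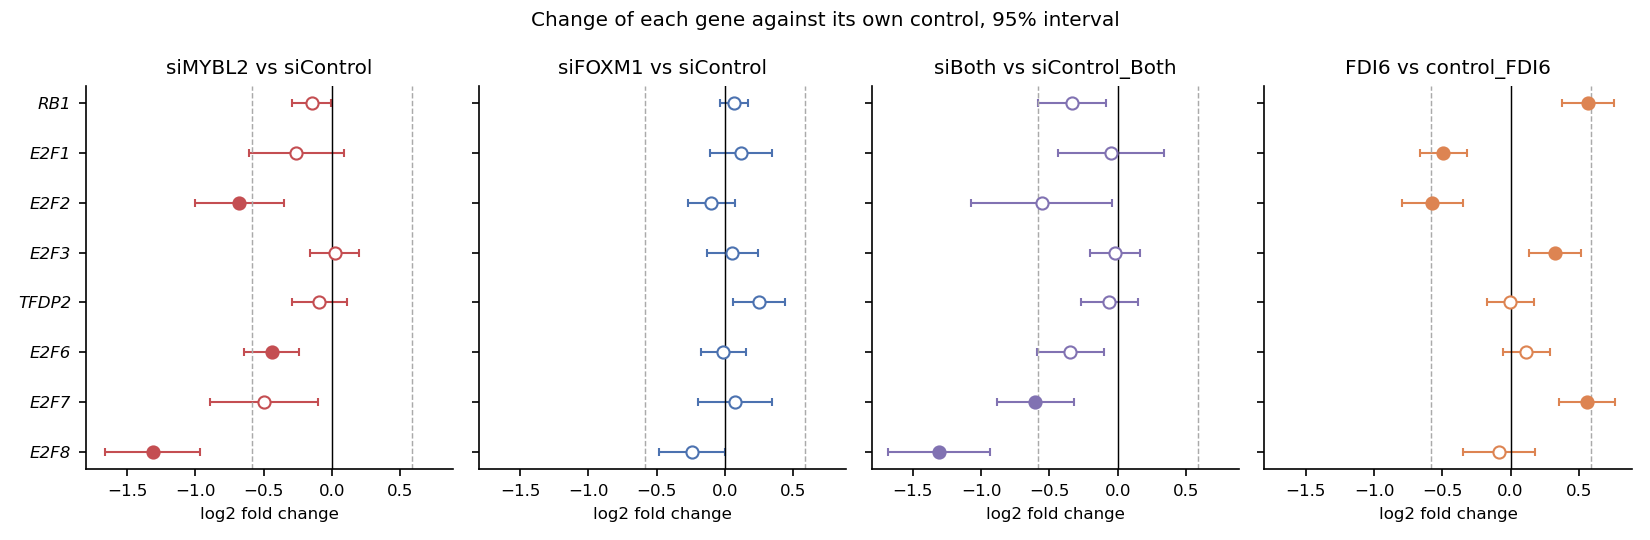
Log2 fold change (horizontal axis) of the 8 genes in each treatment against its own controls, with 95% intervals from edgeR. Filled points have an adjusted p under 0.05, and dashed lines mark a fold change of 1.5. E2F8 is past the dashed line in siMYBL2 and siBoth at -1.31 in each, no point is filled in siFOXM1, and 5 points are filled in FDI6, 3 of them above 0.

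The siFOXM1 libraries were compared with the same 4 siControl libraries to ask which of the genes responded to loss of FOXM1. None of the 8 was called, by edgeR or by DESeq2, and none had an adjusted p under 0.05 in edgeR, although 1 had an unadjusted p under 0.05. In this comparison 0.591% of the 15892 genes tested were downregulated and 0.0755% upregulated, and 1.09% were lower and 0.277% higher at the adjusted p alone. The median log2 change of the 8 genes was 0.06.

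TFDP2, the DP partner, was at 47.6, 46.2, 51.8 and 51.6 CPM in siFOXM1 and at 39.6, 35.9, 43.4 and 46.1 CPM in siControl. The lowest knockdown library lay just above the highest control library, and the log2 change was 0.25 ± 0.0841 (adjusted p = 0.225). TFDP2 was higher in 4 of 4 same-numbered pairs, and under the block the log2 change was 0.25 with an adjusted p of 7.95e-05. E2F8 was at 9.87, 9.42, 11.2 and 10.4 CPM in siFOXM1, a range that overlapped the controls. Its log2 change was -0.24 ± 0.107 (adjusted p = 0.388), with E2F8 lower in 4 of 4 pairs and an adjusted p of 0.0173 under the block. With the block 1 of the 8 genes was lower and 1 higher, where 14% of all genes were lower and 12.3% higher.

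None of the other 6 genes passed in either fit after siFOXM1. RB1 was at 70.7, 68.4, 68.6 and 73.1 CPM, each above every control library, with a log2 change of 0.07 ± 0.0461 (adjusted p = 0.627), and 0.12 with an adjusted p of 0.0106 when the block was combined with removal, per library, of a trend of counts on the GC content and length of the transcripts. The log2 changes of E2F1, E2F2, E2F3, E2F6 and E2F7 lay between -0.10 and 0.12, and the widest of their 95% intervals were -0.11 to 0.34 for E2F1 and -0.20 to 0.34 for E2F7. None of the 26 E2F targets was called, none had an edgeR adjusted p under 0.05, and 5 had an unadjusted p under 0.05. Under the block 14 of them were lower and 1 higher at the adjusted p alone, none by over 1.5-fold. The median of the target list was -0.13. Of the other pocket, E2F and DP genes, none had an adjusted p under 0.05, the nearest being E2F5 at 0.33 ± 0.0707 (adjusted p = 0.0662). RBL1 was at -0.21 ± 0.0766, E2F4 at 0.16 ± 0.0905, RBL2 at 0.10 ± 0.129 and TFDP1 at -0.10 ± 0.0927 on the log2 scale. Under the block 2 of the 5 tested were lower and 3 higher at the adjusted p. CCND1, another D-type cyclin, was then the 1 gene upstream of RB to be downregulated, at -0.61 (adjusted p = 2.07e-14).

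The difference between both single knockdowns was tested directly in 1 fit of the 12 libraries, in which the shared controls cancel. E2F8 and E2F2 were lower by over 1.5-fold after siMYBL2 than after siFOXM1, and E2F7, E2F6, TFDP2 and RB1 were lower by less. Both thresholds were passed by 2 of the 8 genes, against 4.52% of the 16538 genes tested that were lower and 5.83% higher. By the adjusted p 6 were lower and 0 higher, against 13.2% and 12%. The log2 difference (siMYBL2 minus siFOXM1) was -1.08 ± 0.137 for E2F8 (adjusted p = 0.000142) and -0.59 ± 0.128 for E2F2 (adjusted p = 0.0053). E2F2 was just past the fold threshold and lost it with DESeq2, with either other scaling and with a stricter count filter, and without siMYBL2 replicate 1, siMYBL2 replicate 4, siFOXM1 replicate 1 or siFOXM1 replicate 4, with its adjusted p at most 0.0202. E2F7 was just short of the fold threshold, at -0.58 ± 0.157 (adjusted p = 0.0174), and passed it without siMYBL2 replicate 1, siMYBL2 replicate 3 or siFOXM1 replicate 4 (log2 differences from -0.72 to -0.45). E2F7 also passed both thresholds under the block, at -0.60 (adjusted p = 9.24e-07). In that fit 4258 of the 16538 genes tested were lower and 4177 higher at the adjusted p alone. E2F6 differed by -0.44 ± 0.0816 (adjusted p = 0.00193), TFDP2 by -0.35 ± 0.081 (adjusted p = 0.00704) and RB1 by -0.23 ± 0.0538 (adjusted p = 0.00859). E2F1 differed by -0.39 ± 0.138 (adjusted p = 0.0577), and under the block by -0.40 with an adjusted p of 9.12e-05. It passed unblocked in DESeq2 (adjusted p = 0.0442) and without siMYBL2 replicate 2 or siControl replicate 4 (lowest adjusted p = 0.0123). E2F3 differed by -0.04 ± 0.08 (95% interval -0.22 to 0.13). E2F4, outside the 8, also differed, by -0.61 ± 0.12 (adjusted p = 0.00282), and by less than 1.5-fold without siMYBL2 replicate 4, siFOXM1 replicate 2 or siFOXM1 replicate 3.

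The double knockdown asked whether losing both factors moved these genes further. E2F8 and E2F7 were downregulated and none of the 8 rose. Against siControl_Both, 2 of the 8 were downregulated, beside 3.64% of the 15812 genes tested, with 2.80% upregulated. On the adjusted p 2 were lower and 0 higher, against 7.77% and 4.55%, and with the replicate block 5 were lower and 0 higher, against 18.5% and 16.3%.

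E2F8 was at 3.75, 4.82 and 5.22 CPM in siBoth and at 12.3, 10.96 and 10.88 CPM in siControl_Both. The groups stood far apart, with a mean of 40.4% of control and a log2 change of -1.31 ± 0.163 (adjusted p = 0.00278). E2F7 was at 16.3, 19.2 and 20.2 CPM in siBoth and at 25.3, 30.6 and 28.9 CPM in siControl_Both. The groups did not overlap, and the log2 change was -0.60 ± 0.122 (adjusted p = 0.0187), close to the fold threshold. E2F7 was no longer called without siBoth replicate 1 or 2 or without siControl_Both replicate 2 or 3 (log2 changes from -0.69 to -0.53 and adjusted p up to 0.0741 over the 6 libraries left out), nor after removal of the trend on GC content and length (-0.47, adjusted p = 0.0512). Across 15747 genes Spearman's rho between GC content and log2 change was 0.33 in this comparison, against 0.06 in siMYBL2 and 0.09 in siFOXM1.

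E2F2, E2F6 and RB1 passed the test with the block and not without it. E2F2 was at 6.45, 11.9 and 11.4 CPM in siBoth and at 13.2, 14.3 and 16.3 CPM in siControl_Both, separate ranges with replicate 1 lowest in both groups. Its log2 change was -0.56 ± 0.226 (adjusted p = 0.142), and -0.58 under the block (adjusted p = 0.00323). E2F6 was at 26.85, 24.98 and 30.48 CPM in siBoth and at 33.7, 33.2 and 38.1 CPM in siControl_Both, again without overlap. Its log2 change was -0.35 ± 0.107 (adjusted p = 0.0696, and 0.00365 under the block), and it passed with DESeq2 (adjusted p = 0.0462) and without siBoth replicate 3 (adjusted p = 0.0481). RB1 was at 51.1, 39.4 and 50.1 CPM in siBoth and at 59.5, 58.6 and 59.2 CPM in siControl_Both, with replicate 2 of the knockdown the farthest from its controls. Its log2 change was -0.33 ± 0.108 (adjusted p = 0.0807, and 0.00435 under the block), and with the GC and length trend removed under the block it was -0.16 (adjusted p = 0.0469). E2F1, E2F3 and TFDP2 had log2 changes of -0.05 ± 0.17, -0.02 ± 0.0791 and -0.06 ± 0.0915. For E2F1 the change was -0.20 with the GC and length trend removed (adjusted p = 0.388), and -0.20 with an adjusted p of 0.0256 when the block was added.

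Of the 26 E2F targets, 4 were downregulated after siBoth and 0 upregulated, against 3.64% and 2.80% of all genes tested, with a list median of -0.35. RRM2, a subunit of ribonucleotide reductase, had a log2 change of -1.16 ± 0.0844 (adjusted p = 0.000294) and UHRF1 of -1.11 ± 0.238 (adjusted p = 0.0232). ORC1 was at -0.66 ± 0.118 (adjusted p = 0.0119) and DTL, which directs the degradation of replication factors, at -0.63 ± 0.126 (adjusted p = 0.0184). The count was 3 without siBoth replicate 2, 2 without siBoth replicate 1 or siControl_Both replicate 3, 1 without siControl_Both replicate 2, and 7 without siBoth replicate 3 or siControl_Both replicate 1. RRM2 was called in each case. At the adjusted p 9 targets were lower, against 7.77% of all genes, and 17 under the block, against 18.5%. Unblocked, 1 to 4 were lower without siBoth replicate 1 or 2 or siControl_Both replicate 2 or 3. Upstream of RB, CCND3 was downregulated again, at -0.64 ± 0.0959 (adjusted p = 0.00601), and CDKN1A, the kinase inhibitor p21, was upregulated, at 0.74 ± 0.187 (adjusted p = 0.0373). CDKN1A was no longer called without siBoth replicate 1 or 2 or siControl_Both replicate 1 or 3 (adjusted p up to 0.116), and under the block CDKN2D, another kinase inhibitor, was downregulated as well, at -0.68 (adjusted p = 0.0159). Of the other pocket and E2F genes only RBL1 changed at the adjusted p, falling by 0.44 ± 0.0966 (adjusted p = 0.0252), and not without siBoth replicate 1 or 2 or siControl_Both replicate 2 or 3. RBL2, E2F4, E2F5 and TFDP1 had log2 changes from -0.14 to 0.20.

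The effect of siBoth was then tested against that of siMYBL2, each relative to its own controls, in 1 fit of 14 libraries. No gene of the 8 passed at either threshold in edgeR or DESeq2, and none had an unadjusted p under 0.05. Of the 17012 genes tested, 0.159% were lower at both thresholds and 0.176% at the adjusted p alone, and the share higher was 0% at each. The difference for E2F8 was 0.00 ± 0.231 with a 95% interval of -0.49 to 0.50, which leaves room for differences in either direction. For E2F7 the interval was -0.62 to 0.41, for E2F2 -0.47 to 0.71 and for RB1 -0.45 to 0.08.

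**Figure D3:**
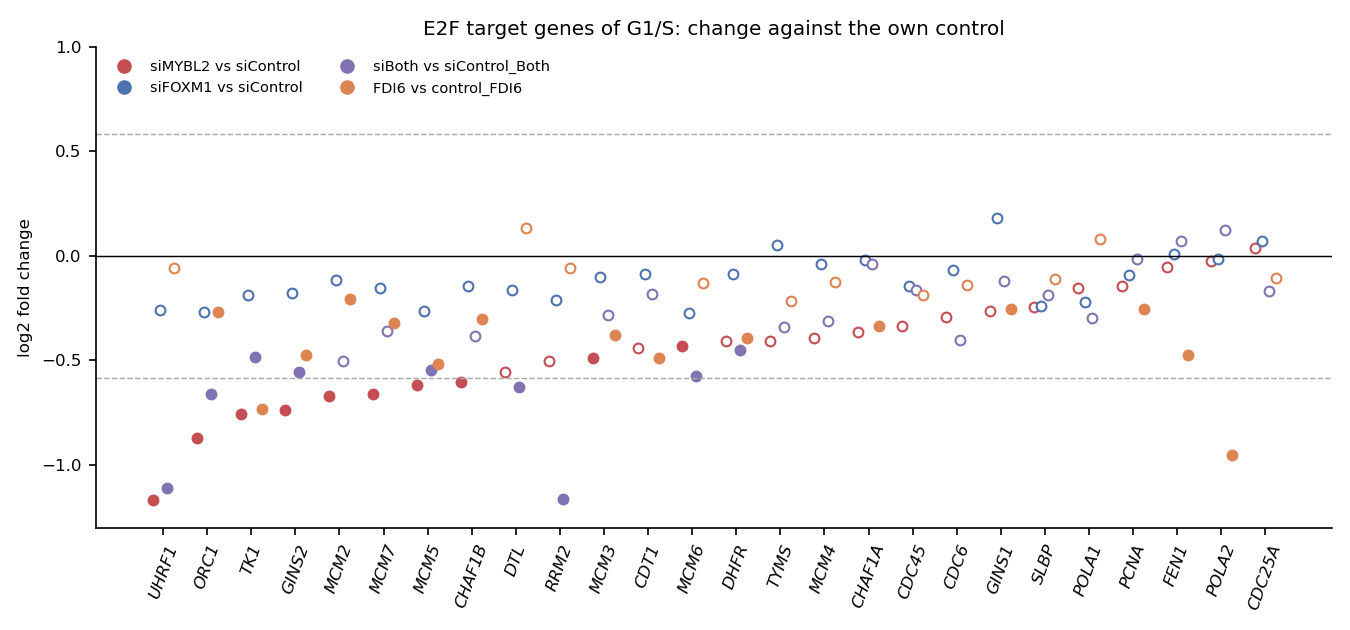
Log2 fold change (vertical axis) of the 26 E2F target genes of G1/S in the 4 treatments, each against its own controls, ordered by the change in siMYBL2. Filled points have an adjusted p under 0.05 and dashed lines mark a fold change of 1.5. UHRF1 is lowest in siMYBL2 at -1.17, RRM2 in siBoth at -1.16 and POLA2 in FDI6 at -0.95, and no siFOXM1 point is filled.

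RB1, E2F7 and E2F3 were higher under FDI-6 and E2F1 and E2F2 lower, all by less than 1.5-fold. E2F6, E2F8 and TFDP2 did not pass the test. In the 3 FDI6 against the 3 control_FDI6 libraries none of the 8 genes was called at both thresholds by edgeR or DESeq2, while 5.77% of the 15240 genes tested were downregulated and 8% upregulated. At the adjusted p alone 2 of the 8 were lower and 3 higher, against 17.9% and 21.0% of all genes. The direction and the base composition of these transcripts ran together. Across the 15176 genes with a GC value, Spearman's rho between GC content and log2 change was -0.49 after FDI-6, and the fifth of genes with the lowest GC content had a median change of 0.27 against -0.30 in the fifth with the highest. Over the 8 genes rho was -0.86. Its part in the changes was not tested beyond the corrected values given here. The summed fibroblast markers were at 5.70 to 9.49 CPM in FDI6 and 18.3 to 20.9 in control_FDI6, and the epithelial markers at 6008 to 6933 and 9773 to 10550 CPM, and their part in these changes was not tested.

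RB1, the pocket protein, was at 72.8, 61.12 and 59.96 CPM in FDI6 and at 42.81, 42.76 and 44.97 CPM in control_FDI6. All treated libraries were above all controls, with replicate 1 the highest, and the log2 change was 0.57 ± 0.0872 (a fold change of 1.48, adjusted p = 0.000459). The RB1 transcript is 37.1% GC, the lowest of the 8, and with the GC and length trend removed its change was 0.26 (adjusted p = 0.00243). E2F7 was at 39.9, 32.7 and 35.8 CPM in FDI6 and at 25.8, 23.6 and 23.9 CPM in control_FDI6. The groups did not overlap, and the log2 change was 0.56 ± 0.095 (a fold change of 1.47, adjusted p = 0.000862). At 43.1% GC its corrected change was 0.34 (adjusted p = 0.00361). Both genes passed the fold threshold without FDI6 replicate 2, RB1 also without FDI6 replicate 3 or control_FDI6 replicate 3, and E2F7 also without control_FDI6 replicate 1, with log2 changes of up to 0.61 for RB1 and 0.62 for E2F7.

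E2F1 was at 53.5, 58.3 and 60.6 CPM in FDI6 and at 78.8, 85.9 and 77.8 CPM in control_FDI6. Every treated library was lower, at 71.1% of control in the mean, and the log2 change was -0.49 ± 0.079 (adjusted p = 0.000588). The E2F1 transcript is 61.6% GC, the highest of the 8, and its corrected change was -0.17 (adjusted p = 0.0495). E2F2 was at 18.9, 23.1 and 21.7 CPM in FDI6 and at 29.75, 33.98 and 30.91 CPM in control_FDI6. The groups were again separate, with a log2 change of -0.57 ± 0.102 (adjusted p = 0.00111) and a corrected change of -0.48 (adjusted p = 0.000178) at 57.4% GC. E2F2 passed the fold threshold without FDI6 replicate 2 or 3 or control_FDI6 replicate 1 or 3 (down to -0.64).

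E2F3, the third activator, went against E2F1 and E2F2. It was at 49.5, 42.6 and 46.1 CPM in FDI6 and at 34.2, 37.2 and 38.7 CPM in control_FDI6, with no overlap. The log2 change was 0.32 ± 0.0869 (adjusted p = 0.0119), and 0.20 after correction (adjusted p = 0.0421), and without control_FDI6 replicate 1 the adjusted p was 0.0754. E2F8 was at 16, 13.97 and 14.18 CPM in FDI6 and at 13.3, 16.3 and 17.1 CPM in control_FDI6. The groups overlapped and the log2 change was -0.09 ± 0.121 (95% interval -0.35 to 0.18). E2F6 had a log2 change of 0.12 ± 0.0773 (adjusted p = 0.258). TFDP2 had a change of 0.00 ± 0.0786 (-0.17 to 0.17), which became -0.26 with an adjusted p of 0.00969 once the GC and length trend was removed.

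**Figure D4:**
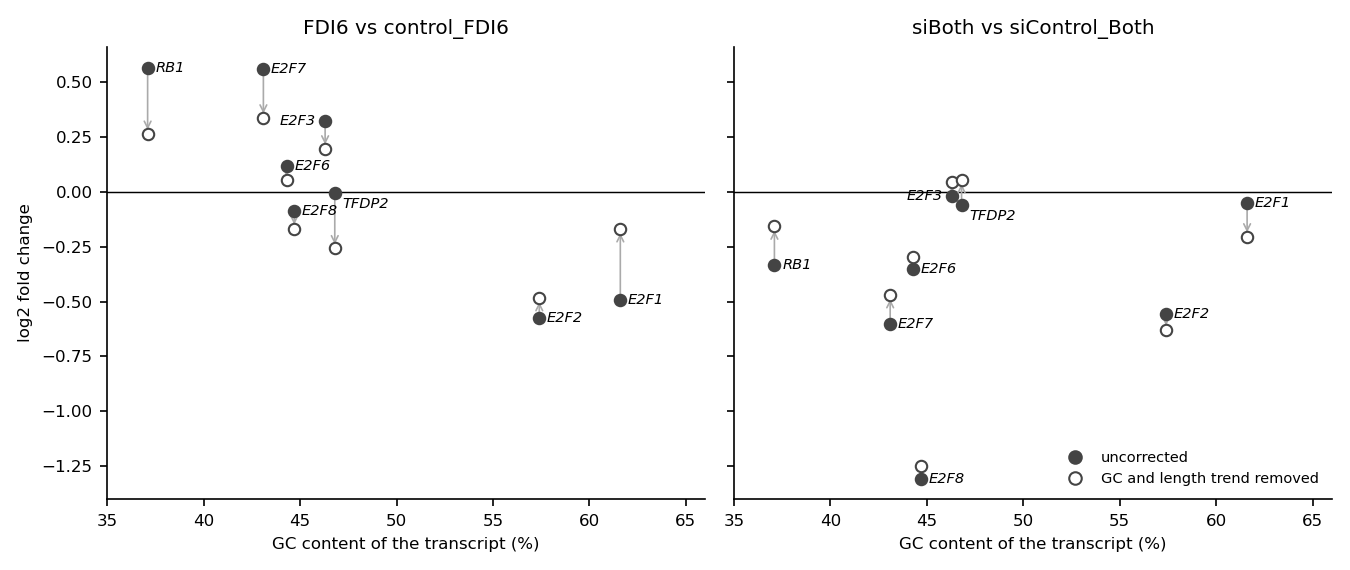
Log2 fold change (vertical axis) against the GC content of the canonical transcript (horizontal axis, percent) for the 8 genes, in FDI6 (left) and siBoth (right). Filled points are the uncorrected changes, and arrows lead to open points with the trend on GC content and length removed. In FDI6 the correction moves RB1 from 0.57 to 0.26 and E2F1 from -0.49 to -0.17, and in siBoth E2F8 stays below -1.2.

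Among the 26 E2F targets, FDI-6 downregulated 2 (7.69%) and upregulated 0, against 5.77% and 8% of all genes tested. The share downregulated was thus close to that of all genes. At the adjusted p alone 15 were lower and 0 higher, against 17.9% and 21.0% of all genes, with a list median of -0.25. POLA2, a subunit of the primase complex, had a log2 change of -0.95 ± 0.145 (adjusted p = 0.000441) and TK1 of -0.73 ± 0.0681 (adjusted p = 1.28e-05). With the GC and length trend removed 1 target was downregulated. Upstream of RB, 3 of 12 tested genes were downregulated. These were CDKN2C, an inhibitor of the D-cyclin kinases, at -1.32 ± 0.125 (adjusted p = 1.38e-05), CCND3 at -1.15 ± 0.0852 (adjusted p = 2.51e-06) and CDKN2D at -1.03 ± 0.212 (adjusted p = 0.00279). The other pocket genes were higher at the adjusted p alone, RBL2 by 0.48 ± 0.0824 (adjusted p = 0.000868) and RBL1 by 0.32 ± 0.099 (adjusted p = 0.0244) on the log2 scale, RBL1 not without control_FDI6 replicate 1 or 2 (adjusted p up to 0.112). E2F4, E2F5 and TFDP1 had log2 changes of 0.02 ± 0.0669, -0.01 ± 0.108 and 0.06 ± 0.0628. MYBL2 and FOXM1 fell by 0.51 ± 0.0902 (adjusted p = 0.00105) and 0.37 ± 0.0805 (adjusted p = 0.004). The transcripts of MYBL2, FOXM1, TK1, CCND3 and CDKN2D are 55.7% to 61.2% GC, and those of RBL1 and RBL2 at most 42.8%. Their changes ran in the direction of the GC trend given above, while CDKN2C fell at 44.9% GC. Corrected changes are not given for these genes, and the part of the trend in them was not tested.

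The effect of FDI-6 was set against that of siFOXM1 in 1 fit of 14 libraries, each effect relative to its own controls. E2F1 and E2F2 were lower and RB1 was higher under FDI-6 than under siFOXM1. Of the 8 genes 1 was lower at both thresholds and 0 higher, against 4.18% and 7.32% of the 17026 genes tested. At the adjusted p alone 2 were lower and 1 higher, against 8.64% and 12.3%. The log2 difference (FDI6 effect minus siFOXM1 effect) was -0.61 ± 0.133 for E2F1 (adjusted p = 0.00504), -0.48 ± 0.126 for E2F2 (adjusted p = 0.0152) and 0.50 ± 0.0968 for RB1 (adjusted p = 0.00264). E2F1 lost the fold threshold without siFOXM1 replicate 3, siControl replicate 4, FDI6 replicate 1 or control_FDI6 replicate 2 (up to -0.53), and E2F2 had an adjusted p of 0.0505 without control_FDI6 replicate 2. E2F7 differed by 0.48 ± 0.165 with an adjusted p of 0.05004, and passed with DESeq2 (adjusted p = 0.0305) and without siFOXM1 replicate 3, siControl replicate 4 or FDI6 replicate 2 (lowest adjusted p = 0.0137). E2F3, TFDP2, E2F6 and E2F8 differed by 0.27 ± 0.123, -0.26 ± 0.12, 0.12 ± 0.101 and 0.16 ± 0.169, with adjusted p from 0.137 to 0.552. With the replicate number as a block within each experiment, although numbers did not pair the FDI-6 libraries, E2F7 (adjusted p = 0.00147) and E2F3 (adjusted p = 0.0460) also passed as higher and TFDP2 (adjusted p = 0.0318) as lower, which made 3 lower and 3 higher of the 8, against 18.3% and 20.0% of all genes. These differences were not corrected for the GC trend given above.

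For the 3 genes called in at least 1 treatment, the genes with the most similar pattern were found over the 24 libraries, on log2 CPM minus the mean of the own control group, among 14546 genes tested in every treatment. For E2F8 these were DLGAP5 (Pearson's r = 0.972), KIF11 (0.969) and MYBL2 itself (0.965). DLGAP5 had log2 changes of -1.07 in siMYBL2, -0.10 in siFOXM1, -1.12 in siBoth and -0.14 in FDI6, and KIF11 had -0.96, -0.09, -1.09 and -0.07. For E2F7 they were IPO5 (0.955), DHX33 (0.955) and PALB2 (0.950), each lower in siMYBL2 and siBoth and higher in FDI6, with DHX33 at -0.40, -0.51 and 0.29. For E2F2 they were MCM5 (0.912), MTA2 (0.909) and SAMD1 (0.904), and MCM5 stood at -0.62 in siMYBL2, -0.26 in siFOXM1, -0.55 in siBoth and -0.52 in FDI6. These correlations describe libraries that share control means and batches, and carry no test.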

How the data were processed

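A total of 24 RNA-seq libraries from A549 cells were used. According to the methods and the labels, the authors trimmed the reads with Trim Galore, aligned them to hg38 with STAR and ran HTSeq against the GENCODE V29 annotation. The values they deposited are raw counts of read pairs per gene, without normalization. Strand setting and tool versions are not given in the sources used here, and pairs that fit several genes were not counted. E2F8 shares 0.2% of its exon bases with a gene on the other strand, and the other 7 genes none. Of 58721 identifiers, 58207 were matched to GENCODE V44 for names, positions, exon length and GC content. Rows of HTSeq totals were left out (3.36% to 4.93% of pairs on no feature, 7.88% to 11.2% ambiguous).

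Counts were analysed in R 4.3.3 with edgeR 4.0.16 (TMM, filterByExpr, quasi-likelihood test, Benjamini-Hochberg adjustment over all genes tested), each treatment against its own controls and without a block. The SE is the change divided by the square root of F. Results were recomputed with DESeq2 1.42.0, with RLE or upper-quartile factors, with other count filters, with the replicate number as a block, in a joint fit, without each library in turn, and after a trend on GC content and length was removed per library (5 degrees of freedom, fitted where the mean count was at least 50; 99.6% of tested genes had both values). The scripts were tested on simulated data. The labels give the replicate numbers that could pair libraries. Deviations of same-numbered libraries correlated at 0.571 to 0.874 for siMYBL2, 0.538 to 0.905 for siFOXM1, 0.553 to 0.688 for siBoth and -0.287 to 0.16 for FDI6, so the numbers were taken to pair the siRNA libraries only. No pair of libraries of a group agreed within counting noise (chi-square per gene at least 3.57). Similar patterns were sought with 0.01 CPM added. Named genes were the 8 genes, MYBL2, FOXM1, the other pocket, E2F and DP genes, the markers, up to 4 called genes per list and comparison with the lowest adjusted p, and the 3 most similar genes. CCNE2, CDKN1C, CCND1 and CDKN2D under the block in the knockdowns were named after their values were seen. The 8 genes and the lists were chosen with earlier results of these data known. A further marker is not reported here.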

Additional observations from a re-analysis of the deposited data

Results flagged for a closer look

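RB1 in siMYBL2 had 1 library apart from the other 3. Replicate 3 was at 66.03 CPM and the others at 57.29 to 58.43, a gap of 0.869 of the group's range. This was 1 of 24 combinations of gene and group tested in this way, and chance gives about 1 in 20.

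Of the 8 genes, 6 responded differently to siMYBL2 and to siFOXM1 when the difference was tested in edgeR with adjustment over all genes. These 6 were lower after siMYBL2 and 0 were higher, against 2191 lower and 1988 higher of the 16538 genes tested. The log2 differences (siMYBL2 minus siFOXM1) were -1.0785 for E2F8, -0.5871 for E2F2, -0.579 for E2F7, -0.4407 for E2F6, -0.3545 for TFDP2 and -0.227 for RB1. The effects of FDI-6 and siFOXM1, each against its own controls, differed for 3 of the 8. Under FDI-6, 2 were lower and 1 higher, against 8.64% and 12.3% of all genes tested. The differences (FDI6 minus siFOXM1) were -0.6147 for E2F1, -0.479 for E2F2 and 0.4969 for RB1. They were not corrected for the GC trend after FDI-6.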

How the results depend on the processing

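The calls of E2F8 and E2F2 after siMYBL2 and of E2F8 after siBoth held under all alternatives run. Of 960 recomputed log2 changes of the 8 genes, 871 kept their direction and side of the threshold, 42 passed it newly, 9 no longer passed and 38 turned sign. Of 465 recomputed counts, 368 were within 1.5 times of the reported value. With the replicate block, genes lower at the adjusted p were 6 after siMYBL2, 1 (and 1 higher) after siFOXM1 and 5 after siBoth, and E2F targets lower were 23, 14 (and 1 higher) and 17. With the GC and length trend also removed, these were 6, 1 (and 2 higher) and 6 genes, and 23, 15 (and 1 higher) and 22 targets. Over all genes that fit gave 3856 lower and 3797 higher of 16065 tested after siMYBL2. It gave 2233 lower and 2141 higher of 15892 after siFOXM1, and 2969 lower and 2778 higher of 15812 after siBoth. After FDI-6, where numbers did not pair the libraries, the block moved no call of the 8, and with the trend removed E2F1 (adjusted p = 0.0834) and E2F3 (0.0659) did not pass. The block raised the genes higher under FDI-6 than siFOXM1 from 1 to 3, and those lower from 2 to 3. The joint fit of 12 libraries gave 5 lower genes after siMYBL2. Upper-quartile factors gave 5 downregulated targets after siMYBL2, 1 gene and 2 targets after siBoth and 1 gene after FDI-6. Removing the trend alone left 1 downregulated gene after siBoth, 1 also at the adjusted p, and 1 target after FDI-6, or 1 with the block. With no count filter, 4 genes were lower after siBoth, and 1 was lower and 2 higher under FDI-6 than siFOXM1, where DESeq2 and the filter of at least 10 counts in every library gave 2 higher. The direct comparison kept 1 gene past both thresholds with DESeq2, RLE, upper-quartile factors or that filter. With the block it added E2F7 past both thresholds and E2F1 at the adjusted p. The cause of these shifts was not tested.

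Leaving out single libraries gave 3 to 9 downregulated targets after siMYBL2 (5 to 13 lower at the adjusted p), 1 to 2 genes and 1 to 7 targets after siBoth (1 to 3 and 1 to 9), 0 to 1 lower and 0 to 2 higher genes past both thresholds after FDI-6, and 1 to 3 in the direct comparison. For FDI6 minus siFOXM1 it gave 0 to 1 gene past both thresholds, and 1 to 2 lower and 1 to 2 higher at the adjusted p.

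Changes that turned sign were near 0 and never called. After siBoth, upper-quartile factors gave 0.0238 for E2F1, 0.0558 for E2F3 and 0.0142 for TFDP2, and removal of the trend gave 0.044 for E2F3 and 0.0557 for TFDP2 (0.0453 and 0.0524 with the block). Upper-quartile factors gave 0.0108 for E2F3 in the direct comparison, and no filter gave -0.0172 for E2F8 in siBoth minus siMYBL2. With single libraries left out, E2F3 ran from -0.0474 to 0.0524 after siMYBL2. After siFOXM1, E2F3 ran from -0.0009 to 0.095, E2F6 from -0.0356 to 0.0469 and E2F7 from -0.0093 to 0.1765. After siBoth, E2F1 ran from -0.1955 to 0.0785, E2F3 from -0.0664 to 0.0225 and TFDP2 from -0.1283 to 0.0024. TFDP2 ran from -0.0549 to 0.0275 after FDI-6 and E2F3 from -0.0854 to 0.0141 in the direct comparison. In siBoth minus siMYBL2, E2F2 ran from -0.0275 to 0.3388, E2F3 from -0.0859 to 0.0129, E2F7 from -0.2315 to 0.0362, E2F8 from -0.1014 to 0.1162 and TFDP2 from -0.0227 to 0.1023.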
